A study of Rattus norvegicus with 9 samples.

Results

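Nuclear pore and nuclear transport genes were followed in rat bone marrow-derived dendritic cells. They were chosen by symbol, with earlier results of these data known: all Nup, Kpna, Kpnb, Xpo, Ipo and Tnpo genes, with Ndc1, Pom121, Tpr, Sec13, Rae1, Aaas, Ran, Ranbp1, Ranbp2, Rangap1 and Cse1l. This gave 56 members of 20442 genes, and Seh1l, which the choice also names, was not analysed here. Of the 56 members, 54 carry the pathway term Nucleocytoplasmic transport and 38 the term nuclear pore in the annotation deposited with the values.

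Wild-type cells were grown from bone marrow in medium with 10% serum and with GM-CSF and IL-4 at 20 ng/mL each, the cytokines that drive myeloid precursors towards dendritic cells. Control cultures (n = 3) had no treatment, LPS cultures (n = 3) were given lipopolysaccharide, a bacterial endotoxin, at 1 µg/mL. The third group, LPS+EVs (n = 3), was given LPS together with extracellular vesicles from ASCs. Treatment lasted 24 h. The treatment text also gives 50 ng/mL of an agent without naming it. Which groups received that agent, and the vesicle dose, are not given in the sources used here, so its part in any difference cannot be told apart from the part of LPS or vesicles. Replicates are labelled as biological, but separate animals are not stated, so p-values measure the spread between these cultures.

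The nuclear pore complex is a channel through the nuclear envelope built from stacked rings of proteins called nucleoporins. The Y complex and inner ring form its scaffold, membrane nucleoporins anchor it, and nucleoporins with phenylalanine-glycine repeats fill its channel. Large cargo crosses the channel on carriers: importins bind cargo in the cytoplasm, exportins bind it in the nucleus, and the GTPase Ran, in its GTP form inside the nucleus, releases imported cargo and loads exported cargo. In immune cells this machinery carries activated transcription factors such as NF-kB and STAT proteins into the nucleus. Many nucleoporins and Ran itself also act in mitosis, when the envelope is taken down and rebuilt.

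The promoters of 5 members are shown first. Of these, Ranbp1, Ran, Kpna2 and Nup85 carry main results below and fell steeply with LPS. Rae1 is 1 of the 3 members called higher with LPS, a call that ended in 8 of 17 alternative settings listed at the end. Each window runs from 250 bases before to 50 bases after the annotated start, 5′ to 3′ on the gene's strand, and is taken from RefSeq on build GRCr8, whereas the expression values were made on mRatBN7.2. Capitals mark matches, on either strand, to short words of factors that act at promoters of growth and cell cycle genes or of inflammatory genes: E2F (TTCCCGC or TTGGCGC or TTTGGCG), the cell cycle homology region CHR (TTTGAA or TTCGAA), the CCAAT box (CCAAT), NRF1 (GCGCATGC or GCATGCGC), ETS (CCGGAAG), NF-kB (GGGNNTTTC) and the E-box (CACGTG). The windows lie at chr11:96246662-96246961 on the plus strand (Ranbp1), chr12:33314241-33314540 on the minus strand (Ran), chr10:92445792-92446091 on the minus strand (Kpna2), chr10:101305185-101305484 on the plus strand (Nup85) and chr3:182197352-182197651 on the plus strand (Rae1).
Ranbp1: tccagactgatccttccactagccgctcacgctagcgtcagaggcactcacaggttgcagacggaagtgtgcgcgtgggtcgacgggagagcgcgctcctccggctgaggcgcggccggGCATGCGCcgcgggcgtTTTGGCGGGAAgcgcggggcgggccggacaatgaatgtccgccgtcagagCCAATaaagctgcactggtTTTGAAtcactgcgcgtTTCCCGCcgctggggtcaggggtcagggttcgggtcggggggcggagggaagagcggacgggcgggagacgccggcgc
Ran: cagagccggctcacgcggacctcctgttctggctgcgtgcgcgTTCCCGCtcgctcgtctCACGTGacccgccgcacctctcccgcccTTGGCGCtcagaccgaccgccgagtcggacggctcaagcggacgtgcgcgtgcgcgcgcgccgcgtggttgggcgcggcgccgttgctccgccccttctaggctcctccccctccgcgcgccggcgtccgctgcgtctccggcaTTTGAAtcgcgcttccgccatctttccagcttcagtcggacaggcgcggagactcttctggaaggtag
Kpna2: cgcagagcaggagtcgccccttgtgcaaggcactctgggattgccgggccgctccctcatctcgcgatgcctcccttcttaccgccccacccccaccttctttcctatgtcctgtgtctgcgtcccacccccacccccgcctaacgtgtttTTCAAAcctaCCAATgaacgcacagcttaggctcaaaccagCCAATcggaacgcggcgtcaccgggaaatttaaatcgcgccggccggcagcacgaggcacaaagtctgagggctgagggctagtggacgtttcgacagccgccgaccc
Nup85: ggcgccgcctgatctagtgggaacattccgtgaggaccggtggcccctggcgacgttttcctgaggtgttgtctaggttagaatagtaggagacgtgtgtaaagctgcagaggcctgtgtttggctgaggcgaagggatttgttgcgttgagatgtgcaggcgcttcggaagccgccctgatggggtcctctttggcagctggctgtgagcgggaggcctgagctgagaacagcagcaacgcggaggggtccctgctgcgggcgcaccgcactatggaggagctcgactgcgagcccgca
Rae1: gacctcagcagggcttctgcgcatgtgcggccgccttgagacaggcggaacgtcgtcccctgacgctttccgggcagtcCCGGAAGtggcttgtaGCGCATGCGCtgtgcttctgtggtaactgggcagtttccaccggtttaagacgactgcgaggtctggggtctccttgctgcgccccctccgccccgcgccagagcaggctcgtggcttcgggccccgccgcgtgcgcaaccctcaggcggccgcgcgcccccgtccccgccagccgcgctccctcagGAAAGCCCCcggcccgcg

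The Ranbp1 window held 3 E2F words, 1 of them overlapping another, 1 CHR word, 1 CCAAT box and 1 NRF1 word. The Ran window held 2 E2F words, 1 CHR word and 1 E-box. The Kpna2 window held 1 CHR word and 2 CCAAT boxes. The Nup85 window held no word of the 7 kinds. The Rae1 window held 2 overlapping NRF1 words, 1 ETS word and 1 NF-kB word.

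Windows were found for 49 of the 56 members. An E2F word stood in 10 of the 30 windows of members that fell with LPS (33.3%), in 4 of 15 windows of tested members without a call (26.7%) and in 14.6% of 9125 windows of all tested genes. A CHR word stood in 12 of 30 (40%), 4 of 15 (26.7%) and 14.8% of the same sets. CCAAT boxes stood in 10 of 30 windows of members that fell (33.3%), in 11 of 15 without a call (73.3%) and in 39.4% of all tested genes. The other words, in the same order of sets, were ETS in 4 of 30 (13.3%), 3 of 15 (20%) and 19.8%, and NRF1 in 2 of 30 (6.67%), 2 of 15 (13.3%) and 5.44%. An E-box stood in 5 of 30 (16.7%), 2 of 15 (13.3%) and 10.1%, and an NF-kB word in 0 of 30, 1 of 15 (6.67%) and 4.95%. Of the 2 windows found for members that rose, 1 each held a CCAAT box, an NRF1, an ETS and an NF-kB word. These shares describe letters in a window, and no binding was measured.

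Between 32148519 and 39407116 assigned reads stood behind each library, and 9846 to 10821 genes per library reached 1 FPKM, a fragment count corrected for gene length and library size. The dendritic cell genes Itgax (29.8 to 52.0 FPKM), Zbtb46 (1.41 to 3.36 FPKM) and Cd74 (939 to 6137 FPKM) were present. Flt3 stayed at or below 0.108 FPKM and Clec9a at or below 0.437 FPKM in every library, and Lyz2, a gene shared with monocytes and macrophages, reached 2407 to 7473 FPKM. The library numbered 2 stood apart within each group, and it was the lowest of its group for 32 (Control), 39 (LPS) and 36 (LPS+EVs) of the 54 tested members, beside 41.4%, 54.2% and 50.8% of all tested genes. Under median-of-ratios scaling the numbers were 23, 28 and 24, beside 34.0%, 37.8% and 34.5%. Counts without the 3 libraries numbered 2 are given beside the main counts.

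Untreated cells held transcripts of nearly every member, led by the Ran system. On the FPKM scale, which is per length, mean Control levels followed the order Ran (196 ± 13.3, SD, n = 3), Kpnb1 (124 ± 10.2), Ranbp1 (119 ± 6.10), Sec13 (92.9 to 110), Kpna2 (99.3 ± 12.6), Rangap1 (77.4 ± 6.26) and Ipo5 (60.6 ± 2.21). Kpnb1 and Ranbp1 did not differ beyond their spread, nor did Sec13 and Kpna2. After LPS the order of mean levels was Sec13 (119 ± 15.1 FPKM), Ran (67.1 ± 22.1), Kpnb1 (65.9 ± 14.2) and Ipo5 (63.3 ± 17.9), with the last 3 within each other's spread, and Kpna2 stood at place 14. The least expressed tested members in Control were Kpna5 (2.02 ± 0.482 FPKM) and Nup35 (2.35 ± 0.334 FPKM). Both members below the filter of 1 FPKM in 3 libraries are paralogs: Nup62cl was listed at 0 in 8 libraries and at 0.0109 FPKM in LPS replicate 1, and Nup210l never passed 0.0766 FPKM, at most 23 reads.

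The comparison of LPS with Control asks how this machinery differs after a day of endotoxin. Most of it was lower. Among 54 tested members 34 fell, 3 rose (Rae1, Kpna1 and Kpna5) and 17 did not pass the test (limma-trend, Benjamini-Hochberg adjusted p under 0.05), whereas 28.7% of all tested genes fell and 12.3% rose. The 34 are 63.0% of the tested members, and the median difference of the members was -0.68 on the log2(FPKM + 1) scale beside -0.19 for all genes. In 25 of the 34 the LPS mean was under 1/2 of the Control mean, and in 6, Nup210 among them, under 1/4. The shares of all tested genes under these bounds are not given here. A fit with the replicate number as a block gave 3 higher and 35 lower, with 17.2% of all genes higher and 35.5% lower. Without the libraries numbered 2, 2 members rose and 30 fell, beside 16.3% and 26.8% of all genes.

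Scaling mattered for the split. Under median-of-ratios scaling the median of all genes moved from -0.19 to 0.00, and calls on all genes were 45.1% higher rather than 29.9%. Under that scaling 29 members fell and 5 rose, beside 20.8% and 17% of all genes, and the members' median stood 0.51 below that of all genes, as against 0.50 below with the deposited scaling. Bulk RNA cannot tell fewer cells of a type from less RNA per cell.

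**Figure D1:**
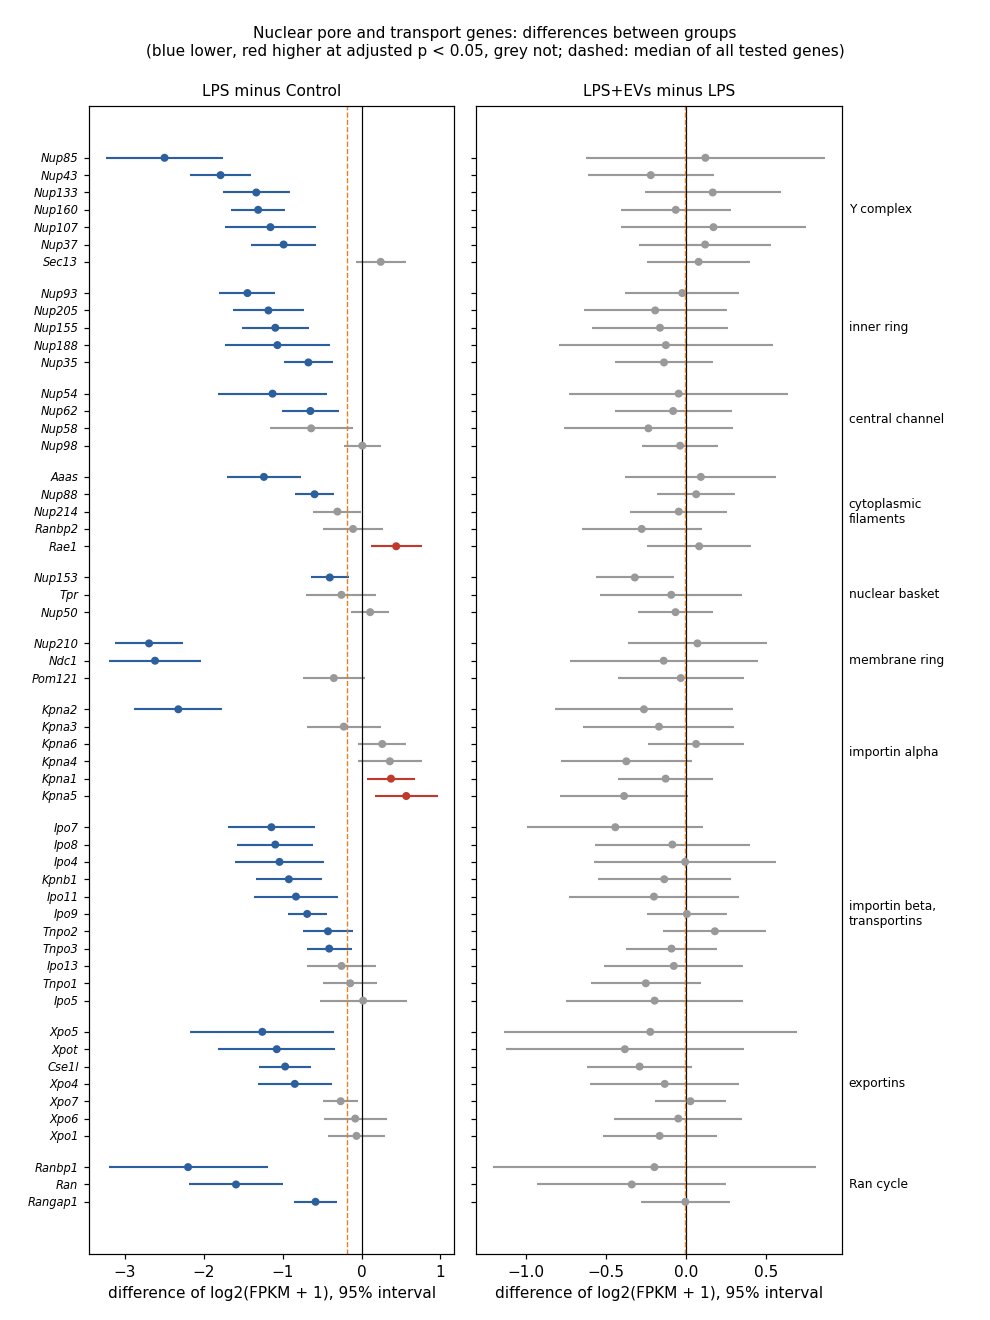
Differences of log2(FPKM + 1) with 95% intervals (x axis) for the 54 tested members (rows, grouped by role), LPS minus Control on the left and LPS+EVs minus LPS on the right, n = 3 per group. On the left 34 members are called lower (blue) and 3 higher (red), and on the right every member is grey.

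Most of the genes grouped here as scaffold of the pore fell. In the Y complex, which coats the membrane on both faces of the pore, 6 of the 7 genes grouped here fell, with a median log2 difference of -1.31. Nup85 (gene ID 287830) stood at 26.1, 22.6 and 23.0 FPKM in Control, at 4.43, 1.79 and 4.65 FPKM in LPS and at 4.13, 2.20 and 5.68 FPKM in LPS+EVs. The lowest Control value was thus far above the highest treated value, and the mean fell 6.60-fold (log2 difference -2.50 ± 0.33, SE, limma adjusted p = 0.000616). Nup43, a smaller Y complex subunit, went from 11.6 to 12.9 FPKM in Control to 2.07 to 3.55 FPKM in LPS (-1.79 ± 0.17, adjusted p = 0.000123). Nup160 (-1.31), Nup133 (-1.33), Nup107 (-1.15) and Nup37 (-0.99) also fell, with adjusted p between 0.000315 and 0.00754. Sec13, which also coats COPII vesicles that leave the endoplasmic reticulum, differed from the other subunits in its values: 92.9 to 110 FPKM in Control and 107 to 136 FPKM in LPS (0.24 ± 0.14, adjusted p = 0.197).

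All 5 genes of the inner ring fell, with a median of -1.09. Nup93 (gene ID 291874), which links the ring to the channel, stood at 26.4, 30.0 and 25.1 FPKM in Control and at 10.4, 7.86 and 9.81 FPKM in LPS (-1.45 ± 0.16, adjusted p = 0.000227). Nup205 (-1.18), Nup155 (-1.09), Nup188 (-1.07) and Nup35 (-0.67) followed. None of the 5 had overlapping values between the groups, but the share of all tested genes without overlap is not given here. The call on Nup188 (adjusted p = 0.0195) ended without Control replicate 1 (0.0699) or Control replicate 3 (0.0526), within a range of 0.00259 to 0.0699 over the alternatives.

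In the membrane ring Nup210 and Ndc1 stood low in every treated library. Nup210 (gene ID 58958), a membrane-spanning nucleoporin, stood at 9.48, 7.37 and 5.47 FPKM in Control and at 0.373, 0.204 and 0.273 FPKM in LPS. Every LPS library was thus more than an order of magnitude below every Control library, a 26.3-fold lower mean. The lowest library still held 50 reads of Nup210. It passed the filter through its Control libraries alone, so it had to differ, and its values are given as a description although it is among the 34. Nup35 also needed a Control library to pass, with 2 treated libraries at or above 1 FPKM, and every other tested member had at least 3. Ndc1 (gene ID 362557), which helps to insert pores into the membrane, stood at 13.5, 10.2 and 12.1 FPKM in Control and at 1.78, 0.488 and 1.23 FPKM in LPS (-2.62 ± 0.26, adjusted p = 0.000138). Pom121, the other membrane nucleoporin tested, had values of 14.9 to 15.7 FPKM in Control and 9.95 to 14.9 FPKM in LPS (-0.35 ± 0.17, adjusted p = 0.134), and passed the test only without LPS replicate 3 (0.0396, range 0.0396 to 0.458).

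In the central channel 2 of 4 tested genes fell: Nup54 (-1.13 ± 0.30, adjusted p = 0.0174) and Nup62 (-0.65 ± 0.16, adjusted p = 0.0126). The Nup54 call ended without Control replicate 3 (adjusted p = 0.0587, range 0.00379 to 0.0587), and the Nup62 call under median-of-ratios scaling (0.0537) and without the libraries numbered 2 (0.0711, range 0.00842 to 0.0711). Nup58 missed the threshold (-0.64 ± 0.23, adjusted p = 0.0543) but passed with the replicate block (0.0124) or without LPS replicate 3 (0.00753, range 0.00753 to 0.142). Nup98, which lines the channel and also binds active genes, stood at 21.0, 21.8 and 22.6 FPKM in Control and at 19.7, 22.7 and 23.5 FPKM in LPS, and its difference was 0.01 (95% interval -0.23 to 0.25).

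Of 5 genes grouped here with the cytoplasmic filaments, which receive exported cargo, 2 fell and 1 rose. Aaas, the nucleoporin aladin, fell from 17.5 to 19.4 FPKM to 6.20 to 9.15 FPKM (-1.24 ± 0.21, adjusted p = 0.00203). Nup88 fell by 0.60 ± 0.11 (adjusted p = 0.00296), a call lost under median-of-ratios scaling (0.0760, range 0.00257 to 0.0760). Nup214 (-0.31 ± 0.13, adjusted p = 0.0976) did not pass. Ranbp2, a SUMO ligase and Ran-binding filament protein, held 19.3 to 25.4 FPKM in Control and 18.2 to 23.7 FPKM in LPS (-0.11 ± 0.16, adjusted p = 0.627). Rae1 (gene ID 362281), an mRNA export factor that docks at Nup98, stood at 26.4, 30.8 and 23.5 FPKM in Control and at 41.6, 38.1 and 30.8 FPKM in LPS. All 3 LPS values lay above the highest Control value, the lowest of them only just (0.44 ± 0.14, adjusted p = 0.0375). The Rae1 call ended without any of Control replicates 1 and 3, LPS replicates 1 and 2 or LPS+EVs replicates 1 and 3 (0.0516 to 0.133), without a filter (0.0550) and with only the 6 compared libraries (0.0740), within 0.00195 to 0.133 over all alternatives.

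In the nuclear basket, where messenger ribonucleoprotein particles dock before export, 1 of 3 genes fell. Nup153 (gene ID 25281) stood at 18.7, 17.7 and 19.0 FPKM in Control and at 13.7, 12.7 and 14.8 FPKM in LPS (-0.40 ± 0.11, adjusted p = 0.0167). That call ended under median-of-ratios scaling (0.190) and without Control replicate 1 (0.0615) or 3 (0.0627), within a range of 0.0120 to 0.190. Tpr, the coiled-coil core of the basket, had a wide spread in LPS, 28.2 to 45.1 FPKM beside 39.4 to 42.8 FPKM in Control (adjusted p = 0.322), and fell without the libraries numbered 2 (0.0329, range 0.0329 to 0.910). Nup50 held 27.4 to 30.9 FPKM in Control and 28.3 to 33.7 FPKM in LPS, and rose only under median-of-ratios scaling (0.0493 without and 0.0348 with the replicate block, range 0.0348 to 0.746). Over all 27 tested nucleoporins 18 fell and 1 rose, with a median of -0.99.

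**Figure D2:**
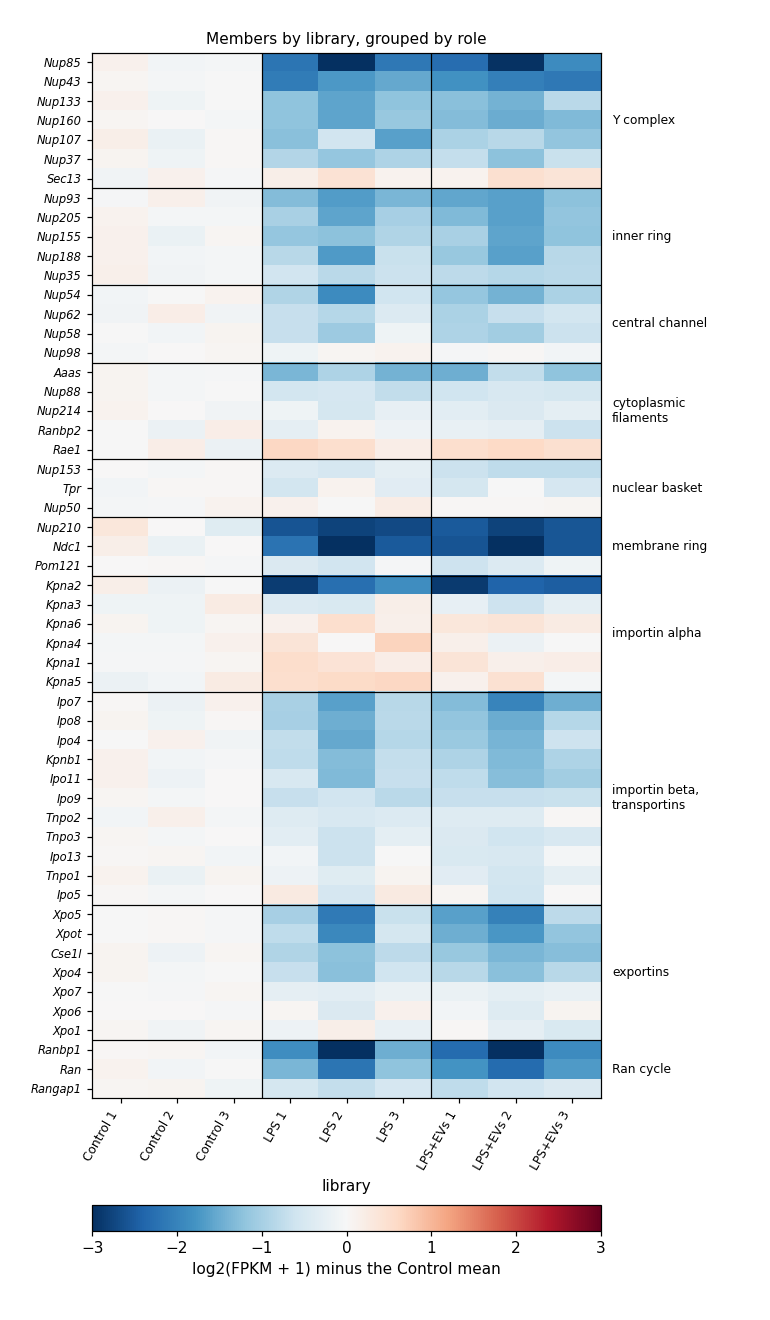
Values of log2(FPKM + 1) minus the Control mean (colour, cut at -3 and 3) for the 54 tested members (rows, grouped by role) in each of the 9 libraries (columns). The Y complex except Sec13, the inner ring, Nup210, Ndc1, Kpna2, Ran and Ranbp1 are blue in all 6 treated libraries, and the library numbered 2 is often the darkest of its group.

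All 3 genes of the Ran cycle fell. Ran (gene ID 84509) stood at 210, 184 and 194 FPKM in Control and at 75.5, 42.1 and 83.7 FPKM in LPS (-1.59 ± 0.26, adjusted p = 0.00181). Ranbp1 (gene ID 360739), which helps to strip Ran-GTP from export complexes, stood at 122, 123 and 112 FPKM in Control and at 31.8, 11.5 and 42.4 FPKM in LPS. No treated library of either gene came near a Control library, and LPS replicate 2 was the lowest of its group for both. The Ranbp1 mean fell 4.16-fold (-2.20 ± 0.44, adjusted p = 0.00503). Rangap1, the protein that makes Ran hydrolyse GTP in the cytoplasm, fell less, from 70.3 to 82.1 FPKM to 46.4 to 54.5 FPKM (-0.58 ± 0.12, adjusted p = 0.00602).

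The importin alpha family, the adaptors that read the classical nuclear localisation signal, split between its paralogs: 1 of 6 genes fell, 2 rose and 3 did not pass. Kpna2 (gene ID 85245) stood at 113, 87.6 and 97.8 FPKM in Control and at 12.8, 19.9 and 26.5 FPKM in LPS, a 5.03-fold lower mean (-2.32 ± 0.24, adjusted p = 0.0002). The smallest Control value of Kpna2 was over 3 times the largest LPS value. Kpna5 rose from 1.67, 1.83 and 2.57 FPKM to 3.24, 3.48 and 3.61 FPKM (0.57 ± 0.18, adjusted p = 0.0310). Kpna1 rose from 6.85, 6.84 and 7.31 FPKM to 10.5, 9.56 and 8.13 FPKM (0.37 ± 0.13, adjusted p = 0.0490).

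Both rises were small, and their calls depended on single libraries. The Kpna1 call ended on leaving out any 1 library except LPS replicate 3 (0.0565 to 0.154), without the libraries numbered 2 (0.128), with only the 6 compared libraries (0.0780) and without a filter (0.0611), within a range of 0.0111 to 0.154. The Kpna5 call ended without any of Control replicates 1 and 2 or LPS replicates 1, 2 and 3 (0.0550 to 0.118), without the libraries numbered 2 (0.0650) and without a filter (0.0725), within a range of 0.0140 to 0.118. Kpna4, an adaptor used by NF-kB, held 9.62 to 11.1 FPKM in Control and 10.2 to 16.7 FPKM in LPS (0.36 ± 0.18, adjusted p = 0.141) and passed as higher under median-of-ratios scaling (0.0142) or without LPS replicate 2 (0.0267) or the libraries numbered 2 (0.0389), within a range of 0.0107 to 0.373. Kpna6 (0.26 ± 0.13, adjusted p = 0.145) and Kpna3 (-0.23 ± 0.21, adjusted p = 0.410) did not pass.

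The make-up of the importin alpha pool therefore differed. Summed over the 6 genes, importin alpha held 133 to 160 FPKM in Control, 67.5 to 88.1 FPKM in LPS and 66.9 to 67.2 FPKM in LPS+EVs. Kpna2 made up 64.6 to 70.4% of that sum in Control, 19.0 to 30.1% in LPS and 18.8 to 26.6% in LPS+EVs. Kpna6 held 10.9 ± 0.187% (SD, n = 3) in Control and 25.8 ± 5.18% in LPS, and was the leading paralog in 2 of 3 LPS libraries. Kpna4 went from 6.01 to 7.31% to 13.4 to 20.0%, and Kpna1 from 4.28 to 5.17% to 9.22 to 15.6%. A larger share of a smaller sum is not a higher level.

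**Figure D3:**
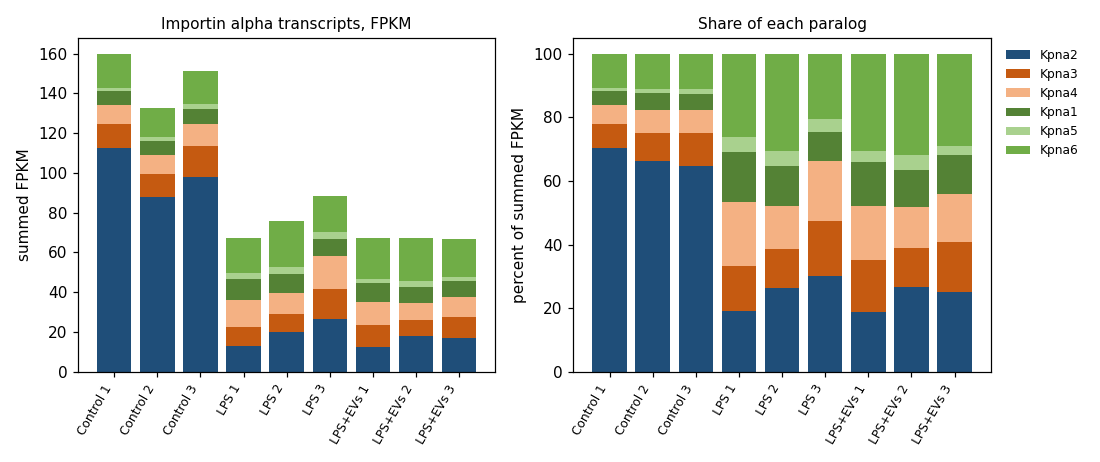
Importin alpha transcripts in each of the 9 libraries (bars) as FPKM (left) and as percent of the summed FPKM of the 6 paralogs (right). Kpna2, the dark blue block, takes 64.6 to 70.4% in Control and 18.8 to 30.1% in the 6 treated libraries.

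Of the 11 importin beta and transportin genes, the carriers that cross the pore, 8 fell and none rose (median -0.69). Kpnb1 (gene ID 24917), importin beta itself and partner of the importin alpha adaptors, stood at 135, 116 and 120 FPKM in Control and at 72.7, 49.6 and 75.3 FPKM in LPS (-0.92 ± 0.18, adjusted p = 0.00459). Ipo7, which carries ribosomal proteins among other cargo, fell from 26.0 to 32.4 FPKM to 8.92 to 16.0 FPKM (-1.14 ± 0.24, adjusted p = 0.00625). Ipo8 (-1.09), Ipo4, an importer of histones (-1.04), Ipo11 (-0.83) and Ipo9 (-0.69) also fell. Tnpo3, the importer of serine-arginine splicing factors, and Tnpo2 fell by less, 0.41 and 0.43. Both of these transportin calls ended under median-of-ratios scaling (0.135 and 0.239) and without the libraries numbered 2 (0.0513 and 0.143), Tnpo2 without any 1 Control or LPS library (0.0701 to 0.127), and Tnpo3 without any Control library or LPS replicate 2 (0.0561 to 0.0987). Over all alternatives their adjusted p ran from 0.0182 to 0.239 (Tnpo2) and from 0.0137 to 0.135 (Tnpo3). The Ipo11 call ended without Control replicate 1 (0.0780) or 3 (0.0615), within a range of 0.00252 to 0.0780.

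The other 3 import carriers did not pass the test. Ipo5 stood at 58.3 to 62.6 FPKM in Control and at 73.7, 42.7 and 73.6 FPKM in LPS, so that LPS replicate 2 lay below and the other LPS libraries above Control (0.02 ± 0.24, adjusted p = 0.956). Tnpo1, the importer of hnRNP proteins, held 16.8 to 20.8 FPKM in Control and 14.8 to 20.4 FPKM in LPS (-0.14 ± 0.15, adjusted p = 0.472). Ipo13 did not pass either (-0.25 ± 0.19, adjusted p = 0.315).

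Of 7 exportins, 4 fell and none rose (median -0.85). Cse1l, which returns importin alpha to the cytoplasm, stood at 28.5, 24.0 and 28.1 FPKM in Control and at 14.0, 10.9 and 15.1 FPKM in LPS (-0.97 ± 0.14, adjusted p = 0.00117). Xpo4 fell by 0.85 ± 0.20 (adjusted p = 0.0116). Xpot, the exporter of transfer RNA, stood at 30.4, 31.3 and 30.0 FPKM in Control and at 17.5, 7.33 and 20.9 FPKM in LPS (-1.07 ± 0.33, adjusted p = 0.0284). Xpo5, the exporter of microRNA precursors, went from 12.8 to 13.6 FPKM to 2.27 to 7.96 FPKM (-1.26 ± 0.40, adjusted p = 0.0347). For both the groups did not overlap, but LPS replicate 2 lay far below the other LPS libraries. The Xpot call ended without any 1 Control library (0.0719 to 0.0777), without a filter (0.0633) and with only the 6 compared libraries (0.0506), within a range of 0.00843 to 0.0777. The Xpo5 call ended without any 1 Control library, LPS replicates 1 or 2 or LPS+EVs replicate 1 (0.0517 to 0.0882), without the libraries numbered 2 (0.0505) and without a filter (0.0775), within a range of 0.00752 to 0.0882.

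Xpo1, the main protein exporter and the carrier that returns inhibited NF-kB to the cytoplasm, stood at 38.9, 34.8 and 39.1 FPKM in Control and at 33.8, 42.5 and 32.0 FPKM in LPS. The groups overlapped (-0.06 ± 0.16, 95% interval -0.42 to 0.29, adjusted p = 0.766). Xpo6 (-0.08, adjusted p = 0.741) and Xpo7 (-0.26, adjusted p = 0.0556) did not pass either, and Xpo7 passed without a filter (0.0281) or with a minimum of 5 FPKM (0.0487, range 0.0281 to 0.692). Over all 27 tested carriers and Ran cycle genes 16 fell and 2 rose.

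**Figure D4:**
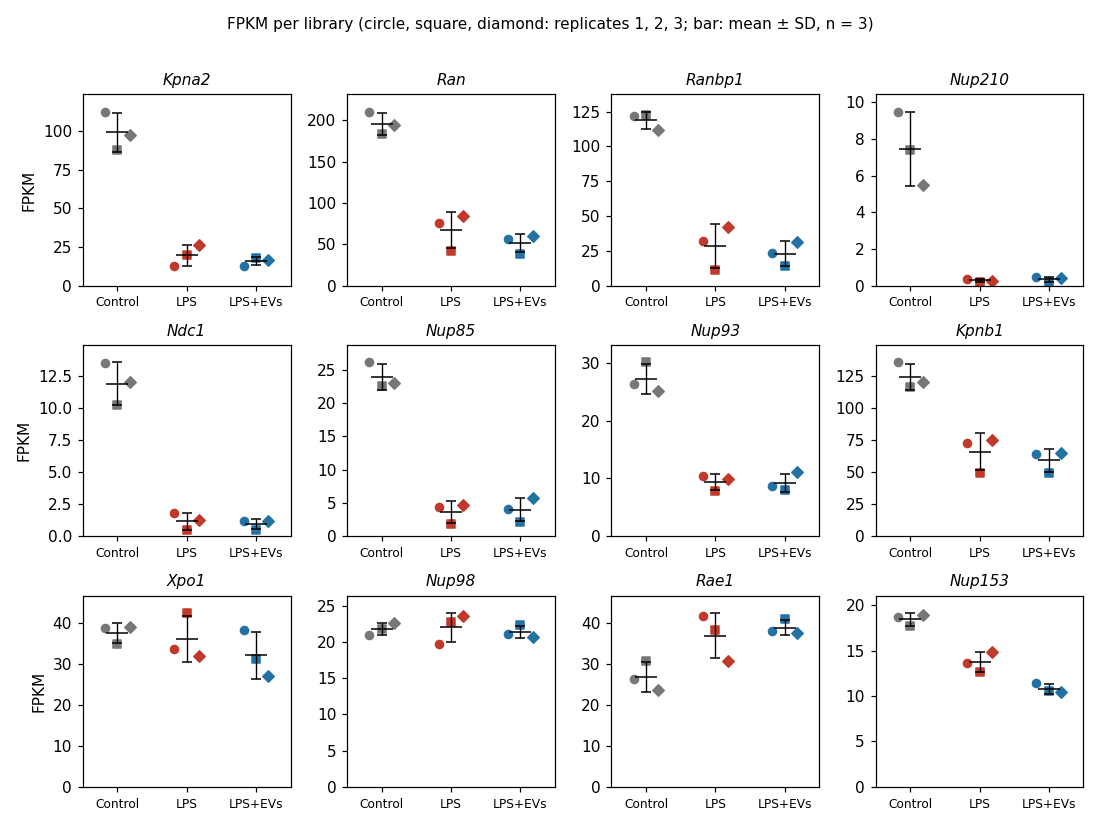
FPKM (y axis, from 0) of 12 members in each library of Control, LPS and LPS+EVs (x axis), with mean ± SD (n = 3) as bars. Kpna2, Ran, Ranbp1, Nup210, Ndc1, Nup85, Nup93 and Kpnb1 lie lower in all 6 treated libraries than in any Control library, Xpo1 and Nup98 overlap, and Rae1 lies at or above Control.

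Many factors that work with these genes fell too. Among 11 tested genes of other Ran and nuclear transport factors 8 fell and none rose (median -0.70). Of all tested genes 28.7% fell and 12.3% rose, with a median of -0.19. Rcc1, the exchange factor that loads Ran with GTP on chromatin, stood at 17.7, 17.8 and 14.9 FPKM in Control and at 1.84, 0.696 and 2.81 FPKM in LPS (-2.75 ± 0.30, adjusted p = 0.000245). Nutf2, the carrier that brings Ran-GDP back into the nucleus, fell by 1.08 ± 0.15 (adjusted p = 0.000982). Phax, an adaptor for export of small nuclear RNA, fell by 0.70, and Ahctf1, which seeds pores on chromatin after mitosis, by 0.85.

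Among 23 genes of mRNA export 12 fell and none rose (median -0.51), beside 28.7% and 12.3% of all tested genes (median -0.19). Nxt2, 1 of the 23, had no treated library at 1 FPKM and passed the filter through Control alone. Its difference is a description only. Nxt1, partner of the export receptor Nxf1, fell from 40.7 to 43.5 FPKM to 9.19 to 14.4 FPKM (-1.75 ± 0.17, adjusted p = 0.000124). Alyref (-1.13), Ddx39a (-1.66) and Thoc3 (-0.90), which load messenger RNA for export, fell as well. Nxf1 itself held 54.6 to 58.3 FPKM in Control and 58.1 to 87.1 FPKM in LPS (0.29 ± 0.17, adjusted p = 0.211).

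Transcripts of a cell cycle list stood lower as well. In this comparison list of 36 genes 33 fell and none rose, beside 28.7% and 12.3% of all tested genes, with a median of -3.27. Their summed level went from 1135 to 1298 FPKM in Control to 148 to 216 FPKM in LPS and 162 to 200 FPKM in LPS+EVs. Of the 36, 12 had no treated library at 1 FPKM and passed the filter through Control alone, so they had to differ, as did 285 of all 11141 tested genes. With those that had under 3 treated libraries at 1 FPKM, 15 of the 36 and 645 of all needed Control to pass. The count and the median include these genes and are given as a description. In the deposited annotation 26 of the 56 members carry the term Cell Cycle, Mitotic. The part of cell division in the members' falls was not tested. Of the T and NK cell list, 6 genes were in the table and 2 were tested, and both fell: Cd4, and Cd8a, which passed the filter through Control alone. The sums of the list were 18.9 to 31.0 FPKM in Control and 7.97 to 11.9 FPKM in LPS. The T cell genes Cd3d and Cd247 stayed at or below 0.0772 and 0.0151 FPKM, and values of the list's other untested genes are not given here. Whether these falls reflect a change in T cells was not tested. Of 10 tested macrophage genes 5 fell and 3 rose, and of 10 tested dendritic cell genes 3 fell and 1 rose. The median differences were -0.63 and -0.53, beside -0.19 for all tested genes. For both lists the summed levels overlapped between the groups, but such sums rest mostly on abundant genes such as Lyz2 and Cd74. Of 5 tested neutrophil genes 2 fell and 1 rose. Cxcr2, 1 of these 5, had no treated library at 1 FPKM and passed the filter through Control alone. Of 4 erythroid and megakaryocyte genes 1 fell and 2 rose, of 8 stromal genes 1 rose, and no B cell or mast cell gene reached the filter. All these counts of cell type genes stand beside 28.7% lower and 12.3% higher among all tested genes. The part of the cell mixture in the members' falls was not tested.

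The comparison of LPS+EVs with LPS asks whether the vesicles altered the response. No member passed the test in either direction, and neither did any of the 11141 tested genes (0% higher and 0% lower by limma, with and without the replicate block). At an unadjusted p under 0.05 stood 295 genes, 2.65% of all, and 1 member, Nup153. With the replicate block the numbers were 600 genes and 5 members (Cse1l, Ipo7, Kpna4, Nup153 and Tnpo1), with a lowest adjusted p of 0.776. The median difference of the members was -0.09 beside -0.01 for all genes.

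Nup153 had the smallest p: 13.7, 12.7 and 14.8 FPKM in LPS and 11.4, 10.5 and 10.4 FPKM in LPS+EVs, without overlap (-0.32 ± 0.11, unadjusted p = 0.0152, limma adjusted p = 0.999). Kpna5 was the only other tested member without overlap, at 3.24, 3.48 and 3.61 FPKM in LPS and 2.30, 3.12 and 1.88 FPKM in LPS+EVs (-0.39 ± 0.18, adjusted p = 0.999). Such groups without overlap made up 2 of 54 members and 6.62% of all tested genes. Kpna4 (-0.37, 95% interval -0.78 to 0.04) and Cse1l (-0.29, -0.62 to 0.04) came next by p, and their groups overlapped. For Ipo7 LPS+EVs stood at 11.4, 6.72 and 9.96 FPKM beside 14.6, 8.92 and 16.0 FPKM in LPS (-0.44 ± 0.24).

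These data do not show that the vesicles left the genes alone. Over the members the 95% intervals of the difference ran from -1.21 (lower end, Ranbp1) to 0.87 (upper end, Nup85).

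Against Control, which both treated groups share as reference, LPS+EVs gave 34 members lower and 1 higher (Rae1), beside 30.8% of all tested genes lower and 13.5% higher. The median of the members was -0.84 and that of all genes -0.19. With the replicate block 37 members were lower and 2 higher, beside 37.4% and 17.8% of all genes. Sec13 (adjusted p = 0.0309) was the added rise, and Kpna3 (0.0476), Nup214 (0.0422) and Tnpo1 (0.0146) the added falls. Without the libraries numbered 2 the counts were 36 lower and 1 higher, beside 29.9% and 16.7% of all genes. Under median-of-ratios scaling 45.6% of the calls on all genes were higher rather than 30.5%.

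Of the members lower in LPS, 33 were also lower in LPS+EVs. The calls against Control differed for 4 members. Nup58 was called lower in LPS+EVs (10.0 ± 0.625 FPKM in Control, 5.05 ± 0.888 FPKM in LPS+EVs, -0.87 ± 0.23, limma adjusted p = 0.0153) and not in LPS, a call that ended without Control replicate 3 (0.0546) or LPS+EVs replicate 2 (0.0522, range 0.00285 to 0.0546). Tnpo2 was called lower only in LPS, with 18.5, 18.4 and 25.2 FPKM in LPS+EVs beside 23.2 to 27.1 FPKM in Control (-0.25, adjusted p = 0.186), and it passed without LPS+EVs replicate 3 (0.0374, range 0.0374 to 0.884). Kpna1 (0.24, adjusted p = 0.160) and Kpna5 (0.18, adjusted p = 0.438) were called higher only in LPS, and Kpna1 passed in LPS+EVs too under median-of-ratios scaling (0.0416, range 0.0277 to 0.384). The direct comparison of LPS+EVs with LPS did not call any of these 4 genes.

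For the members described above, the LPS+EVs values follow with their differences from Control. Nup210 stood at 0.448, 0.198 and 0.403 FPKM in LPS+EVs, and Ndc1 at 1.15, 0.463 and 1.19 FPKM (-2.76 ± 0.26, limma adjusted p = 0.000106). Nup85, whose LPS+EVs values are given above, differed by -2.38 ± 0.33 (adjusted p = 0.000801). Kpna2 stood at 12.7, 17.8 and 16.9 FPKM (-2.59 ± 0.24, adjusted p = 0.000114), Ran at 56.0, 38.7 and 59.8 FPKM (-1.93 ± 0.26, adjusted p = 0.000717) and Ranbp1 at 23.3, 13.8 and 31.6 FPKM (-2.40 ± 0.44, adjusted p = 0.00317). Rae1 stood at 38.0, 40.9 and 37.5 FPKM (0.52 ± 0.14, adjusted p = 0.0179), a call lost when Control replicate 1 (0.0592) or 3 (0.0723) or LPS+EVs replicate 2 (0.0583) was left out, within a range of 0.000959 to 0.0723.

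Some values carry a limit from the genome. On GRCr8, 9 members overlap another protein-coding gene of the table, and whether strand was used in counting is not given in the sources used here, so reads of such pairs cannot be told apart. Nup37 overlaps Parpbp, which went from 2.35 to 3.37 FPKM in Control to at most 0.0705 FPKM in LPS. Nup43 overlaps Pcmt1, which fell as well, and Tpr overlaps Prg4, which rose. Ran and Ranbp1 belong to families with near-identical processed copies, so their levels are uncertain to that extent.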

How the data were processed

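Counting, mapping and trimming were the authors': per the submitters' processing notes, fastp, HISAT2, HTSeq, R 3.2.0 and build mRatBN7.2 were used, with settings not given in the sources used here. RNA was extracted with TRIzol and libraries were made with a VAHTS Universal V6 kit, per the labels' protocols. The deposited values are FPKM for 20442 genes in 9 libraries. Steps of 1 read in the FPKM gave whole reads within 0.002 for 100% of 18833 genes, up to a whole factor shared by all values of a gene, and from these the depths. Intervals on reads cover counting error only.

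Genes of at least 1 FPKM in at least 3 libraries (11141) were tested with limma 3.58.1 (R 4.3.3; lmFit, eBayes with trend) on log2(FPKM + 1), 1 mean per group over all 9 libraries, two-sided, Benjamini-Hochberg within each comparison, threshold 0.05. Such fold changes understate those of low genes. The script was tested on simulated data. Python 3.11.15, numpy 2.4.6, pandas 2.3.3 and matplotlib 3.10.9 did the rest.

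Same-numbered libraries deviated together (correlation 0.284 to 0.863, 9 pairs, against -0.745 to 0.426 for 18 other pairs). Replicate numbers may thus pair the samples, which is read from the data and not from the labels. The main fit left this pairing out, so its SE and adjusted p ignore it, and only the fits with the replicate block used it. Members and lists were chosen with earlier results of these data known. Named are, per role, up to 4 tested members with the smallest adjusted p against Control, a panel of 21 members, members whose calls differ between groups, the 4 with the smallest p between LPS+EVs and LPS, up to 4 genes per related list and those below the filter; Sec13, Ipo5, Pom121, Nup50, Nxf1 and others outside this rule were named after their values were seen. Alternatives were a pseudocount of 0.1, median-of-ratios scaling, a minimum of 5 FPKM or none, the replicate block, the 6 compared libraries, each library left out and, chosen after seeing the data, the libraries numbered 1 and 3 alone.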

Additional observations from a re-analysis of the deposited data

How the results depend on the processing

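The number of members that fell stayed within 1.5 times of the reported value in both comparisons with Control under every alternative run, and 24 of the 34 members lower in LPS kept that call in every alternative in which they were tested, as did 9 of the 17 without a call and none of the 3 higher. Of the 24, Nup210 was tested in 13 of 17 alternatives (not when a Control library was left out), Nup160 and Nup35 in 16 (not at 5 FPKM). Differences that passed under neither setting were not compared by sign. Members higher in LPS than in Control numbered 3 as reported, 5 under median-of-ratios scaling, 7 with the replicate block and that scaling, 0 without a filter, 1 with only the 6 compared libraries and 0 to 2 when 1 library was left out. The median difference of all tested members was -0.68 as reported, -0.51 under median-of-ratios scaling with or without the replicate block, -0.83 with a pseudocount of 0.1 and -0.83 to -0.62 when 1 library was left out. Members higher in LPS+EVs than in Control numbered 1 as reported, 3 under median-of-ratios scaling, 2 with the replicate block, 4 with the block and that scaling, 2 with the 6 compared libraries and 0 to 2 when 1 library was left out. The median of all tested members was -0.84 as reported, -0.67 under median-of-ratios scaling with or without the replicate block, -0.77 without a filter, -1.005 with a pseudocount of 0.1, -0.75 with the libraries numbered 1 and 3 alone and -0.86 to -0.77 when 1 library was left out. The cause of these shifts was not tested. Over all genes, LPS against Control gave 1368 higher and 3201 lower as reported, 2695 and 2890 with the block and median-of-ratios scaling, and 891 to 1496 and 1884 to 3185 when 1 library was left out. LPS+EVs against Control gave 1505 and 3436, then 2821 and 3024, then 1045 to 1789 and 2194 to 3987. Between LPS+EVs and LPS no member passed under any alternative, and 1 gene of the whole table did without LPS replicate 2. Beside the calls named in the report, the replicate block changed no call on a member, and with median-of-ratios scaling it also called Sec13 (adjusted p = 0.0126) and Kpna6 (0.0456) higher in LPS. Tested members held at least 50 reads in every library, so counting error limits Nup62cl and Nup210l most.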

Other observations

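Genes of the nuclear lamina and envelope, the sheet and membrane in which pores sit, were mixed in LPS against Control. Of 19 tested genes 8 fell and 1 rose (limma, adjusted p under 0.05), with a median of -0.29. Over all tested genes 28.7% fell and 12.3% rose, with a median of -0.19. Lmnb1, a B-type lamin, stood at 48.0, 51.7 and 43.7 FPKM in Control and at 3.72, 6.28 and 4.89 FPKM in LPS (-3.05 ± 0.21, SE, adjusted p = 2.19e-05). Tmpo, which ties lamins to chromatin, fell by 2.24 ± 0.16, Lbr, the lamin B receptor, by 1.94 ± 0.17, and Banf1, which bridges DNA and envelope proteins, by 1.12 ± 0.17. The A-type lamin gene Lmna held 97.2 to 161 FPKM in Control and 95.8 to 103 FPKM in LPS (-0.29 ± 0.18, adjusted p = 0.223). Tor1aip2, a torsin cofactor, rose by 0.45 ± 0.10 on the log2 scale (adjusted p = 0.00944). Syne2 was below the filter.

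Of 8 genes of SUMO conjugation and removal, several of whose products bind the pore, 6 fell and 1 rose. The shares of all tested genes were 28.7% and 12.3%. Sae1 and Uba2, which form the SUMO-activating enzyme, fell by 1.53 ± 0.25 and 1.34 ± 0.27, and Sumo2 fell by 0.59 ± 0.11. Senp2, a SUMO protease, went the other way, from 9.71 to 11.8 FPKM in Control to 17.2 to 25.5 FPKM in LPS (0.90 ± 0.17, adjusted p = 0.00360). No gene of either list passed the test between LPS+EVs and LPS.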
